A study of Homo sapiens with 12 samples.

Results

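The 38 genes described here encode the enzymes that load amino acids onto transfer RNAs, the aminoacyl-tRNA synthetases of the cytosol and of mitochondria, together with AIMP1 and AIMP2, a pair of scaffold proteins that hold several of the cytosolic enzymes in 1 complex. They are defined by gene symbol. The 22 cytosolic members have symbols ending in 1, or are the phenylalanine subunits FARSA and FARSB, TARS3 or a scaffold, and the 16 mitochondrial members have symbols ending in 2. The count table listed 28278 gene symbols, and all 38 members were among them. Each also passed the filter on low counts in every comparison, VARS1 chiefly through its control libraries, as described further on.

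RNA-seq was performed on motor neuron cultures differentiated from WA09-Islet1-GFP, a wild-type human embryonic stem cell line in which green fluorescent protein (GFP) marks cells that express the motor neuron transcription factor Islet1. The cultures received cis-chlordane, an organochlorine pesticide, or the solvent DMSO for 16 hours and were then separated by fluorescence-activated cell sorting into GFP-positive and GFP-negative cells. There were 4 groups of 3 libraries, namely control GFP-positive, treated GFP-positive, control GFP-negative and treated GFP-negative. The dose was 10 µM in the sample records, whereas the methods of the study state a higher dose. All libraries came from 1 line, so no spread between genetic backgrounds is contained in the errors.

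Each synthetase recognises 1 amino acid and its transfer RNAs, uses ATP to join them, and so sets the supply of charged transfer RNA for the ribosome. The cytosol and mitochondria mostly use enzymes of separate nuclear genes, but GARS1 and KARS1 each give rise to both forms, and EPRS1 carries the glutamate and the proline activity on a single chain. Amino acid shortage and other stresses that phosphorylate the initiation factor eIF2alpha raise translation of the transcription factor ATF4, which binds C/EBP-ATF response elements in genes of amino acid metabolism, synthetase genes among them. Inherited variants in several cytosolic synthetase genes cause peripheral neuropathy with loss of motor axon function.

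Sequence around the start sites is shown first because several members that rose share a short element there. Promoter windows of RefSeq on GRCh38.p14, from 250 bases before to 50 bases after each start, were held for 32 of the 38 members; the 6 without a window were LARS1, VARS1, YARS1, TARS3, AARS2 and VARS2. The C/EBP-ATF element TGATGNAA, searched on both strands, was found in 8 of these 32 members, against 4.46% of 27305 genes with a window. By compartment the matches were 7 of 18 cytosolic members and 1 of 14 mitochondrial members. The longer form TTGCATCA, which overlaps the first motif, was found in 6 members, all cytosolic, against 1.08% of genes. The UPR element TGACGTGG was found in 2 members, CARS1 and CARS2, against 0.927% of genes. The 8 stretches below run 5′ to 3′ along the strand of the gene, and capitals mark the match to TGATGNAA or its reverse complement.
AARS1: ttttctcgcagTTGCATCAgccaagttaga
CARS1: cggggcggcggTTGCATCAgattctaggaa
GARS1: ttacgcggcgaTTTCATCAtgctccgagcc
IARS1: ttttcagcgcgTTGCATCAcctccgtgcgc
MARS1: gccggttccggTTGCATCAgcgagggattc
NARS1: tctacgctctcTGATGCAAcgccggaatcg
TARS1: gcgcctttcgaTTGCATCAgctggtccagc
YARS2: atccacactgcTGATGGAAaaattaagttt

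These stretches lay at chr16:70289675-70289704 on the minus strand for AARS1, chr11:3057407-3057436 on the minus strand for CARS1, chr7:30594834-30594863 on the plus strand for GARS1 and chr9:92293692-92293721 on the minus strand for IARS1. Those of MARS1 at chr12:57488053-57488082 and TARS1 at chr5:33440956-33440985 were on the plus strand. Those of NARS1 at chr18:57621804-57621833 and YARS2 at chr12:32756076-32756105 were on the minus strand. In IARS1 the match covered bases -13 to -6 from the start, and in GARS1 bases -33 to -26, while in NARS1 it lay after the start, from base 14 to base 21. The 7 cytosolic genes in this set were all called higher in treated GFP-positive cells, as given next, whereas YARS2 was not. Among the cytosolic members with a window that were called higher, EPRS1, WARS1, SARS1 and AIMP1 held no match in it. A match describes letters in these windows and does not show binding.

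Library totals ranged from 23414935 to 38347050 counts. Values below are CPM, read counts relative to the TMM-scaled total of the library. Log2 fold changes are from edgeR, and standard errors (SE) were computed from its F-test. ISL1, the gene whose activity the reporter follows, was at 62.6 to 68.9 CPM in control GFP-positive and 2.41 to 2.77 CPM in control GFP-negative libraries. It was at 8.02 to 15.4 CPM in treated GFP-positive and 0.387 to 0.692 CPM in treated GFP-negative libraries, so ISL1 was lower with treatment in both fractions. Of 8 motor neuron markers, 6 were called lower in treated GFP-positive cells, and their summed level was 1721 to 1930 CPM in control and 510 to 704 CPM in treated libraries, with none of the 8 at 0. Of 8 pan-neuronal markers 2 were called lower and none higher, while 5 were lower and 2 higher at an adjusted p under 0.05 alone. The 8 summed to 18644 to 20130 CPM in control and 9703 to 12597 CPM in treated libraries, with none at 0. Mesenchymal markers, of which 2 were tested and both called lower, summed to 246 to 310 and 48.7 to 78.8 CPM. Of 8 cycling cell markers 3 were called lower in GFP-positive cells and none higher. Over all genes 12.8% were called higher and 11.2% lower in this fraction, and 26.5% and 24.4% at an adjusted p under 0.05 alone. In GFP-negative cells 7 of 8 cycling cell markers were called lower, their sum was 822 to 1005 CPM in control and 253 to 366 CPM in treated libraries, and none of the 8 was at 0. Of 7 neural progenitor markers tested there, 3 were called lower and none higher, while the summed level of the list was 5986 to 7991 CPM in control and 7293 to 8311 CPM in treated libraries. Of the pan-neuronal markers 1 was called higher there and none lower, with 2 higher and 6 lower at an adjusted p under 0.05 alone. Of 8 motor neuron markers 5 were called lower in GFP-negative cells and none higher. The shares over all genes were 8.59% called higher and 9.75% lower there, and 15.3% and 16.2% at an adjusted p under 0.05 alone. The part of these shifts in the synthetase results was not tested. In bulk libraries, fewer cells of a type and less RNA per cell cannot be told apart.

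In GFP-positive cells, which the study used as its motor neurons, the cytosolic synthetases mostly rose with cis-chlordane, while no mitochondrial one passed the 2-fold rule. A gene was called when its adjusted p was under 0.05 and its fold change at least 2. By that rule 14 of the 22 cytosolic members were higher and 1, VARS1, which rests on a few control libraries, was lower, beside 12.8% of 15333 genes called higher and 11.2% called lower. None of the 16 mitochondrial members was called in either direction. The median log2 fold change was 1.08 over the cytosolic members, -0.17 over the mitochondrial members and 0.03 over all genes tested. With no minimum fold change, 15 cytosolic members were higher and 1 lower, and 2 mitochondrial members were higher and 3 lower, beside 26.5% and 24.4% of all genes. Every treated library was above every control library for 16 cytosolic and 3 mitochondrial members, beside 26.7% of all genes, and below every control library for 2 cytosolic and 6 mitochondrial members, beside 30.8% of all genes.

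**Figure D1:**
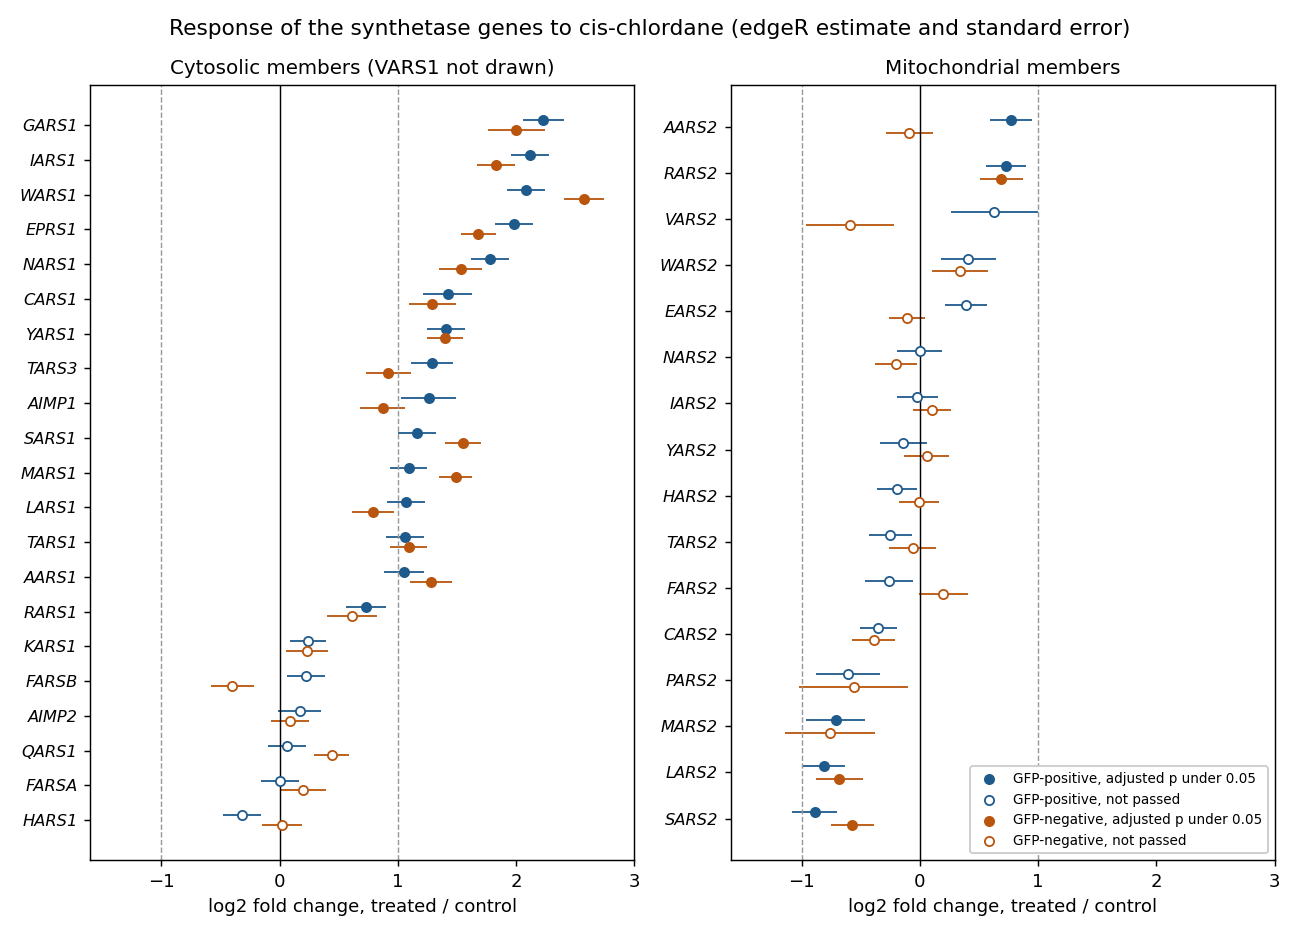
Log2 fold changes (treated over control, horizontal axis) with SE bars for the members in GFP-positive (blue) and GFP-negative (orange) cells, cytosolic at left and mitochondrial at right; filled points have an adjusted p under 0.05 and dashed lines mark a 2-fold change. GARS1 heads the cytosolic panel at 2.23 in GFP-positive cells, 6 cytosolic members stay near 0, and the mitochondrial members lie between -0.89 and 0.77; VARS1, at -4.36, is left off.

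GARS1, the glycyl-tRNA synthetase gene (hg38 chromosome 7, 30580533 to 30634033, plus strand), was at 193, 138 and 181 CPM in the control GFP-positive libraries and at 775, 804 and 700 CPM in the treated ones. Every treated library was thus far above every control library. The control mean was 171 ± 28.9 CPM and the treated mean 760 ± 53.7 CPM (SD, n = 3). The log2 fold change was 2.23 (SE 0.17, adjusted p = 3e-13), which was the largest increase among the members. Because this gene also encodes the mitochondrial glycine enzyme, its counts cannot be assigned to 1 compartment.

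WARS1, the tryptophanyl-tRNA synthetase gene (chromosome 14, 100333790 to 100376805, minus strand), which interferons are also known to induce, was at 176, 210 and 180 CPM in control and 765, 793 and 711 CPM in treated libraries. Its groups were wide apart as well, with a log2 fold change of 2.08 (SE 0.16, adjusted p = 5.9e-13). NARS1, which charges asparagine transfer RNA (chromosome 18, 57600656 to 57622213, minus strand), was at 72, 69.5 and 76.7 CPM in control and 234, 237 and 244 CPM in treated libraries. The SD of its treated replicates was 5.16 CPM, and its log2 fold change was 1.78 (SE 0.16, adjusted p = 1.7e-11).

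YARS1, the tyrosyl-tRNA synthetase gene (chromosome 1, 32775237 to 32818031, minus strand), was at 214, 258 and 206 CPM in control and 569, 638 and 505 CPM in treated libraries. The groups did not overlap and the log2 fold change was 1.41 (SE 0.16, adjusted p = 5.2e-09). CARS1, the cysteinyl-tRNA synthetase gene (chromosome 11, 3000922 to 3057613, minus strand), was an order lower in level, at 16.1, 9.59 and 9.8 CPM in control and 32.4, 24.7 and 33.3 CPM in treated libraries. The lowest treated library of CARS1 was still above the highest control library, and the log2 fold change was 1.42 (SE 0.21, adjusted p = 8.9e-07). The other members outside the complex that were called higher were TARS3, a second cytosolic threonine enzyme, at 1.29 (SE 0.18), SARS1 at 1.16 (SE 0.16), TARS1 at 1.06 (SE 0.16) and AARS1 at 1.05 (SE 0.17). AARS1, which charges alanine transfer RNA, varied most after treatment, at 617, 709 and 417 CPM against 260, 342 and 284 CPM in control. Its estimate lay just inside the 2-fold rule, and it fell under 2-fold when control replicate 1, or replicate 1 or 2 of the treated libraries, was left out, with 0.87 the lowest value. TARS1 also fell under 2-fold without control replicate 2, at 0.98. In all, 9 of the 13 members outside the complex were called higher.

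Within the multisynthetase complex the members split. IARS1, the isoleucine enzyme (chromosome 9, 92210207 to 92293854, minus strand), was at 120, 147 and 144 CPM in control and 583, 554 and 568 CPM in treated libraries, with a log2 fold change of 2.12 (SE 0.16, adjusted p = 3.3e-13). EPRS1, the bifunctional glutamate and proline enzyme (chromosome 1, 219968600 to 220046530, minus strand), was at 87.9, 70.7 and 94.7 CPM in control and 312, 317 and 322 CPM in treated libraries, with a log2 fold change of 1.98 (SE 0.16, adjusted p = 2.8e-12). For both genes the treated replicates lay closer to one another than to any control library. MARS1, the methionine enzyme, at 1.09 (SE 0.16), LARS1, the leucine enzyme, at 1.07 (SE 0.16, and 0.98 at the lowest, under 2-fold, without control replicate 2 or treated replicate 2), and the scaffold AIMP1 at 1.26 (SE 0.23) were also called, so 5 of the 9 complex members were higher and none lower. RARS1, the arginine enzyme, was higher by 0.73 (SE 0.17, adjusted p = 0.00043), which is less than 2-fold. AIMP1 had the lowest GC content of the members, 35.2%, and once a trend with GC content was removed its log2 fold change was 0.69, LARS1 was at 0.77 and TARS1 at 0.80, all under 2-fold.

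The remaining 3 members of the complex did not pass the test. KARS1, which charges lysine transfer RNA in both compartments, was at 248, 271 and 241 CPM in control and 276, 290 and 287 CPM in treated libraries, with a log2 fold change of 0.24 (SE 0.15, adjusted p = 0.2). QARS1, the glutamine enzyme, was at 169, 227 and 165 CPM in control and 180, 204 and 174 CPM in treated libraries, and its groups overlapped (log2 fold change 0.06, SE 0.16, adjusted p = 0.77). The scaffold AIMP2 was at 35.8, 44.3 and 34.2 CPM in control and 37.3, 43.3 and 41.9 CPM in treated libraries (0.17, SE 0.18, adjusted p = 0.43). The 2 scaffolds therefore had different outcomes, AIMP1 past the 2-fold rule and AIMP2 not past the test, although the difference between them was not tested.

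Outside the complex, the phenylalanine and histidine enzymes also did not pass. FARSA and FARSB encode the alpha and beta subunits of 1 enzyme. FARSA was at 150, 221 and 162 CPM in control and 159, 177 and 172 CPM in treated libraries, with overlapping groups and a log2 fold change of 0.00 (SE 0.16, adjusted p = 0.99). FARSB was at 62.6, 64.1 and 68.2 CPM in control and 66.5, 78.8 and 70.6 CPM in treated libraries (0.22, SE 0.16, adjusted p = 0.27). HARS1, the histidine enzyme, was at 201, 203 and 170 CPM in control and 143, 154 and 141 CPM in treated libraries. All 3 treated libraries of HARS1 were below the control libraries, but its log2 fold change of -0.32 (SE 0.16) had an adjusted p of 0.084. It was under 0.05, at 0.04 at the smallest, with DESeq2, in the fit of all 12 libraries, with the replicate block and without control replicate 3. FARSA had a GC content of 61.3%, and with the GC trend removed its log2 fold change was 0.41 with an adjusted p of 0.016.

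**Figure D2:**
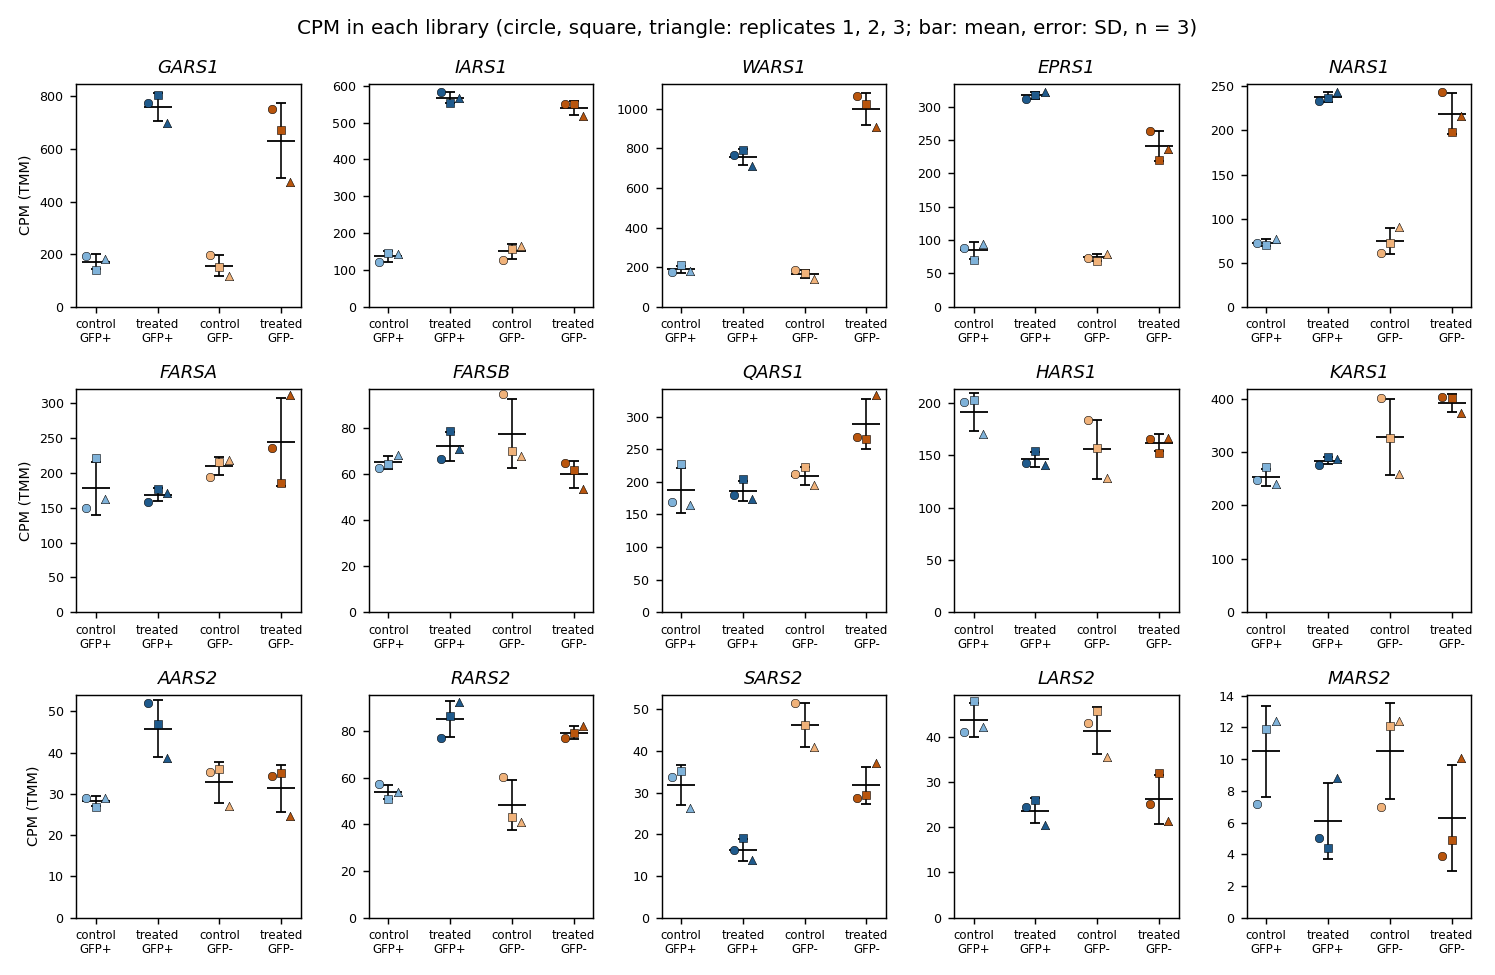
CPM (vertical axes, from 0) of 15 members in each of the 12 libraries, by group, with replicates 1, 2 and 3 as circle, square and triangle and bars for the mean and SD (n = 3). GARS1, IARS1, WARS1, EPRS1 and NARS1 separate fully between control and treated libraries in both sort fractions, FARSA, FARSB, QARS1, HARS1 and KARS1 do not do so in both, and AARS2 is higher with treatment in GFP-positive cells but not in GFP-negative cells.

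Of the mitochondrial members, AARS2 and RARS2 rose in GFP-positive cells and SARS2, LARS2 and MARS2 fell, each by less than 2-fold. AARS2, the mitochondrial alanine enzyme (chromosome 6, 44298731 to 44313347, minus strand), was at 29, 26.8 and 28.9 CPM in control and 52.1, 46.8 and 38.6 CPM in treated libraries, a log2 fold change of 0.77 (SE 0.18, adjusted p = 0.00044). RARS2, the arginine enzyme (chromosome 6, 87513459 to 87590028, minus strand), was at 57.3, 50.9 and 53.7 CPM in control and 77.2, 86.4 and 92.3 CPM in treated libraries (0.73, SE 0.17, adjusted p = 0.00036). Neither gene had overlapping groups. With the GC trend removed AARS2 was at 1.05 and passed the 2-fold rule. The next highest estimates, VARS2 at 0.63 (SE 0.37, adjusted p = 0.15) and WARS2 at 0.41 (SE 0.23, adjusted p = 0.14), did not pass the test. WARS2, the tryptophan enzyme, was at 4.62, 7.79 and 6.82 CPM in control and 7.63, 7.53 and 9.19 CPM in treated libraries, with 1 control library above 2 of the treated ones.

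SARS2, the mitochondrial serine enzyme (chromosome 19, 38915266 to 38930763, minus strand), was at 33.8, 35.2 and 26.4 CPM in control and 16.2, 19.1 and 13.8 CPM in treated libraries, a log2 fold change of -0.89 (SE 0.19, adjusted p = 0.00022). LARS2, the leucine enzyme (chromosome 3, 45388561 to 45554726, plus strand), was at 41, 48 and 42.2 CPM in control and 24.4, 26.1 and 20.6 CPM in treated libraries (-0.81, SE 0.18, adjusted p = 0.00025). In both genes all treated libraries were below all control libraries. SARS2 had a GC content of 61.4%, and its log2 fold change was -0.49 with the GC trend removed, while it stayed past the threshold. MARS2, the methionine enzyme, was at 7.2, 11.9 and 12.4 CPM in control and 5.05, 4.42 and 8.82 CPM in treated libraries (-0.71, SE 0.25, adjusted p = 0.018). PARS2, the proline enzyme, was at 7.94, 11.8 and 9.8 CPM in control and 5.5, 3.27 and 9.63 CPM in treated libraries (-0.61, SE 0.27, adjusted p = 0.056). Treated replicate 3 was the highest treated library for both MARS2 and PARS2 and overlapped the control range. Without that library the log2 fold change was -1.08 for MARS2 and -1.10 for PARS2, and both were then called lower. MARS2 also lost its adjusted p under 0.05 in 4 of the fits that left out 1 of the other libraries. The other 8 mitochondrial members ranged from -0.35 for CARS2 to 0.39 for EARS2 and none passed in the main fit. The adjusted p of CARS2 was under 0.05, at 0.023 at the smallest, with DESeq2, in the fit of all 12 libraries and with the replicate block. That of EARS2 was under 0.05, at 0.02 at the smallest, with library size alone, with the replicate block and with the GC trend removed, with or without the block.

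In GFP-negative cells 11 of the 22 cytosolic members were called higher and none lower, beside 8.59% of 15513 genes called higher and 9.75% called lower. These 11 were WARS1, GARS1, IARS1, EPRS1, SARS1, NARS1, MARS1, YARS1, CARS1, AARS1 and TARS1, of which TARS1 fell under 2-fold, at 0.93, with the GC trend removed. The count with no minimum fold change was 14 higher and 0 lower, beside 15.3% and 16.2% of all genes, as LARS1 at 0.79, TARS3 at 0.92 and AIMP1 at 0.87 were past the adjusted p alone. Of the cytosolic members, 16 had no overlap between groups with treated above control, beside 24.2% of all genes, and 1 had treated below control, as did 3 mitochondrial members, beside 22.4% of all genes. None of the 16 mitochondrial members was called, and with no minimum fold change 1, RARS2, was higher at 0.69 (SE 0.18, adjusted p = 0.017) and 2, LARS2 at -0.68 (adjusted p = 0.029) and SARS2 at -0.57 (adjusted p = 0.035), were lower. Without control GFP-negative replicate 2 or treated replicate 1, the adjusted p of LARS1, AIMP1, RARS2, LARS2 and SARS2 was no longer under 0.05, nor was that of LARS2 without treated replicate 3 or of SARS2 without control replicate 1 or treated replicate 2. With the GC trend removed AIMP1 at 0.48, RARS2 at 0.50 and SARS2 at -0.33 were also not past an adjusted p of 0.05, and SARS2 was not past it with the replicate block either. The median log2 fold change was 1.01 over cytosolic members, -0.10 over mitochondrial members and -0.01 over all genes.

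The largest increase in GFP-negative cells was that of WARS1, from 185, 170 and 141 CPM in control to 1064, 1027 and 909 CPM in treated libraries, a log2 fold change of 2.57 (SE 0.17, adjusted p = 1.5e-05). GARS1 went from 198, 151 and 118 CPM to 752, 671 and 473 CPM (2.00, SE 0.24, adjusted p = 0.00034). IARS1 went from 127, 157 and 165 CPM to 552, 551 and 518 CPM (1.83, SE 0.16, adjusted p = 6.4e-05). These 3 genes were fully separated between groups, and the treated replicates of GARS1 were the most spread, with an SD of 143 CPM. SARS1, the serine enzyme, rose from 450, 382 and 342 CPM to 1162, 1128 and 1198 CPM (1.55, SE 0.15, adjusted p = 0.00012), and MARS1 from 255, 253 and 240 CPM to 726, 736 and 670 CPM (1.49, SE 0.14, adjusted p = 9.3e-05). QARS1, which did not pass in GFP-positive cells, was at 212, 222 and 195 CPM in control and 268, 266 and 333 CPM in treated libraries, without overlap, and missed the threshold with a log2 fold change of 0.44 (SE 0.15, adjusted p = 0.054). FARSB was at 94.7, 70.1 and 67.6 CPM in control and 64.7, 61.6 and 53.4 CPM in treated libraries (-0.40, SE 0.18, adjusted p = 0.13). MARS2 and PARS2 again had treated replicate 3 highest, at 10.1 and 16.3 CPM, against 3.87 and 4.92 CPM for MARS2 and 6.07 and 3.46 CPM for PARS2 in the other treated libraries.

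Whether a member responded differently in the 2 fractions was tested as an interaction between the treatment and the fraction. None of the 38 members passed an adjusted p of 0.05 in the main edgeR fit, beside 0.968% of 16226 genes with a higher and 1.22% with a lower response in GFP-positive cells. That fit had no block for a culture shared by the 2 fractions. At an unadjusted p under 0.05 there were 6 members, namely AARS2, WARS1, MARS1, SARS1, FARSB and QARS1, and DESeq2 called 1, AARS2. The response of AARS2 was larger in GFP-positive cells by 0.77 on the log2 scale (SE 0.26, adjusted p = 0.14). In GFP-negative cells AARS2 was at 35.3, 35.9 and 27.1 CPM in control and 34.2, 35 and 24.7 CPM in treated libraries, with overlapping groups. Both fractions of 1 replicate number and treatment were taken as 1 sorted culture, which was inferred from the labels. With that culture as a replicate block the AARS2 difference was 0.77 (SE 0.19, adjusted p = 0.028). Across the alternatives its adjusted p ranged from 0.016 to 0.28. WARS1 had the opposite sign, a response smaller in GFP-positive cells by a log2 difference of -0.58 (SE 0.19, adjusted p = 0.14), with adjusted p values between 0.035 and 0.46 across the alternatives. The other members, VARS1 and VARS2 also apart, had differences between -0.55 and 0.53.

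Setting cytosolic and mitochondrial enzymes for the same amino acid side by side gave 17 pairs over 16 amino acids, with EPRS1 and FARS2 each entering 2 pairs. In GFP-positive cells the cytosolic member had the larger log2 fold change in 14 pairs, and in GFP-negative cells in 13. Valine apart, the widest gaps in GFP-positive cells were 2.59 between EPRS1 and PARS2, 2.15 between IARS1 and IARS2, 2.05 between SARS1 and SARS2 and 1.89 between LARS1 and LARS2. For serine, leucine and methionine the members of the pair moved in opposite directions, each past an adjusted p of 0.05. The arginine pair had equal changes in GFP-positive cells, RARS1 and RARS2 both being at 0.73, and in GFP-negative cells they were at 0.61 and 0.69. For histidine neither HARS1 nor HARS2 passed in either fraction. HARS1 and HARS2 are neighbours on opposite strands of chromosome 5 whose annotated spans overlap, HARS1 ending at 140691537 and HARS2 starting at 140691430, and whether counting used strand was not given in the sources used here. For alanine, the gap was 0.28 in GFP-positive and 1.37 in GFP-negative cells.

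**Figure D3:**
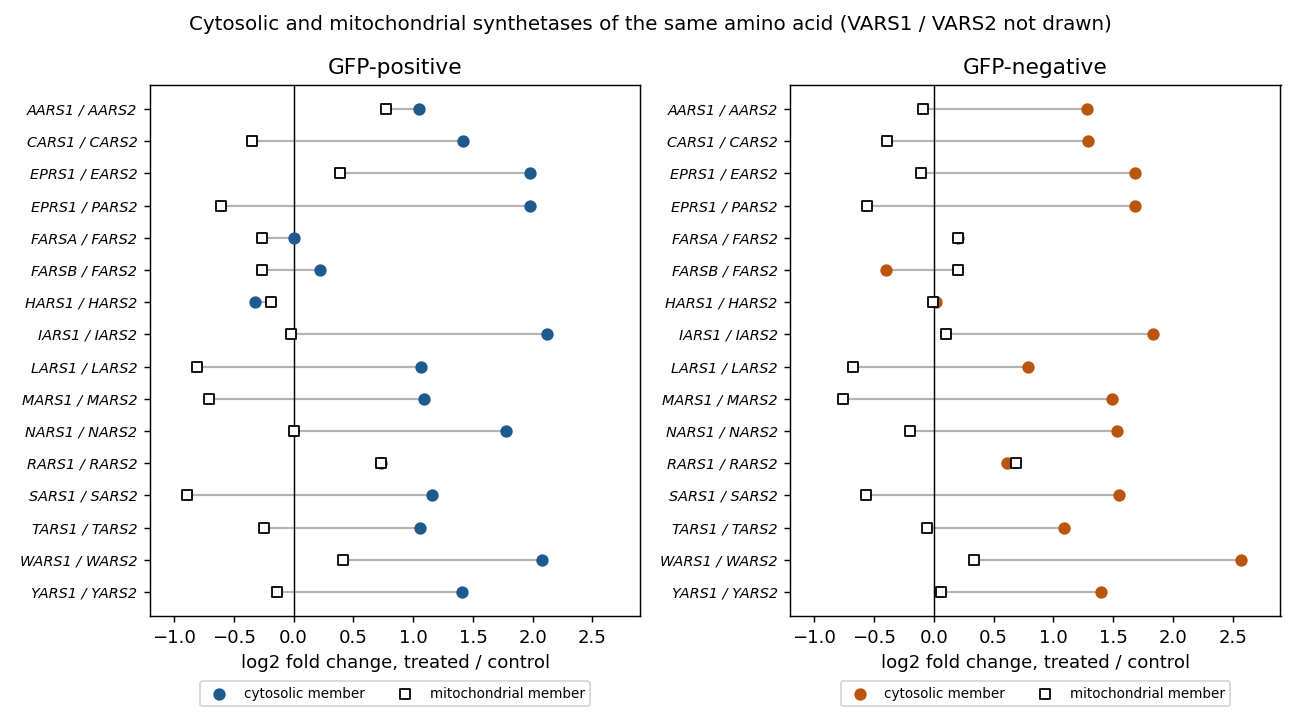
Log2 fold changes (horizontal axis, treated over control) of the cytosolic member (filled circle) and the mitochondrial member (open square) for each amino acid, in GFP-positive cells at left and GFP-negative cells at right; the valine pair is left off. The circle lies to the right of the square in most rows, RARS1 and RARS2 coincide near 0.73 in GFP-positive cells, and AARS2 is close to AARS1 in GFP-positive cells only.

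Summed over the 22 cytosolic members, the level was 3097, 3416 and 3049 CPM in the control and 6918, 7461 and 6462 CPM in the treated GFP-positive libraries. The 16 mitochondrial members summed to 479, 488 and 474 CPM in control and 450, 462 and 449 CPM in treated libraries. The cytosolic sum was therefore 6.43 to 7 times the mitochondrial sum in control and 14.4 to 16.2 times in treated GFP-positive libraries. In GFP-negative cells the same ratio was 5.88 to 6.23 in control and 14.6 to 16.1 in treated libraries. The cytosolic sum includes GARS1 and KARS1, which also give the mitochondrial enzymes. In GFP-positive cells GARS1 had a mean of 171 CPM in control and 760 CPM in treated libraries, and KARS1 of 253 and 284 CPM. The sums are not scaled to transcript length. Members outside the complex accounted for 2087 ± 134 CPM in control and 4762 ± 411 CPM in treated GFP-positive cells (SD, n = 3), and those of the complex for 1101 ± 67.8 and 2185 ± 89.7 CPM.

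Levels between genes were compared as CPM per kilobase of the MANE Select transcript, the reference transcript of each gene. In control GFP-positive cells SARS1 had the highest level, 286 ± 28.3 CPM per kilobase (SD, n = 3), followed by KARS1 at 127 ± 7.99. FARSA at 98.2 ± 21.1, HARS1 at 98.2 ± 9.37, MARS1 at 92.6 ± 10.5, YARS1 at 92.5 ± 11.4 and AARS1 at 86 ± 12.3 came next, and these 5 were not separated beyond their spread. After treatment the order in GFP-positive cells was SARS1 at 609 ± 60.8, GARS1 at 312 ± 22, WARS1 at 287 ± 15.8, YARS1 at 234 ± 27.2 and MARS1 at 187 ± 24.1 CPM per kilobase. GARS1 and WARS1 did not differ beyond their spread. In treated GFP-negative cells WARS1 came second, at 379 ± 30.7, after SARS1 at 608 ± 18.4 CPM per kilobase. The highest mitochondrial member in control GFP-positive cells was CARS2, at 36.5 ± 1.68, then RARS2 at 24.1 ± 1.43 and HARS2 at 22.2 ± 1.49. The ratio of SARS1 to SARS2 per length went from 17.4 ± 1.29 to 72.2 ± 6.71, and that of LARS1 to LARS2 from 2 ± 0.354 to 7.32 ± 0.0881, while that of RARS1 to RARS2 was 0.926 ± 0.0284 in control and 0.927 ± 0.0413 in treated GFP-positive cells. The 2 phenylalanine subunits differed in level per length, FARSA at 98.2 ± 21.1 and FARSB at 9.61 ± 0.43 CPM per kilobase, and the reference transcript of FARSB is 6761 bases long against 1811 for FARSA.

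Without treatment the members differed little between the fractions. No member was higher in control GFP-positive than in control GFP-negative cells and 7 were lower at an adjusted p under 0.05, beside 17.1% of 15404 genes higher and 23.1% lower. The 3 cytosolic ones all belong to the complex. AIMP2, at 35.8, 44.3 and 34.2 CPM against 80.1, 71.1 and 64.8 CPM, differed by -1.03 (SE 0.16, adjusted p = 0.00063) and was the single one past 2-fold, though only just. Its difference was under 2-fold, at -0.93 at the smallest, with library size alone, in the fit of all 12 libraries, with the GC trend removed, and when control GFP-negative replicate 1 or control GFP-positive replicate 1 or 3 was left out. With the GC trend removed AIMP1 passed the 2-fold rule in its place. AIMP1 differed by -0.81 (SE 0.26, adjusted p = 0.031) and KARS1 by -0.48 (SE 0.16, adjusted p = 0.039). The 4 mitochondrial ones were YARS2 at -0.88 (SE 0.18, adjusted p = 0.0034), SARS2 at -0.65 (SE 0.17, adjusted p = 0.012), EARS2 at -0.62 (SE 0.16, adjusted p = 0.011) and CARS2 at -0.52 (SE 0.17, adjusted p = 0.03). Of the 7, only AIMP2 and YARS2 kept an adjusted p under 0.05 in all 15 alternatives. The median over the cytosolic members was -0.11 and over the mitochondrial members -0.16. Cycling cell markers, all 8 of which were lower in GFP-positive cells, summed to 98.1 to 137 CPM there against 822 to 1005 CPM in control GFP-negative cells, and the part of this difference in the result was not tested.

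VARS1, the cytosolic valine enzyme (chromosome 6, 31777518 to 31795752, minus strand), was the only member called lower and needs to be read with its counts. It had 224, 17 and 209 counts in control GFP-positive replicates 1, 2 and 3 and 6, 11 and 8 in the treated ones. In GFP-negative libraries it had 9, 10 and 150 counts in control and 8, 7 and 13 in treated. So 3 libraries, control GFP-positive replicates 1 and 3 and control GFP-negative replicate 3, were high, and the lowest of these was 11.8 times the highest of the other 9 in CPM. Control GFP-positive replicate 2, at 0.494 CPM, was close to the treated GFP-positive libraries, which reached 0.316 CPM. The estimate of -4.36 on the log2 scale in GFP-positive cells is given as a description, since VARS1 passed the filter on low counts chiefly through its high control libraries and was not tested at all when 10 counts were required in every library. In GFP-negative cells the estimate was -2.61, and 0.24 without control GFP-negative replicate 3.

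When the exons of each reference transcript were cut into windows of 100 bases and aligned to hg38, 100% of the windows of VARS1, VARS2 and CARS1 also matched an alternate contig, a second version of the same region in the assembly. Of the other 35 members, IARS1 had 1.44% of its windows repeated and the rest none. Whether reads were mapped to an index with these contigs was not given in the sources used here, and the part of these repeats in the counts was not tested. VARS2, the mitochondrial valine enzyme (chromosome 6, 30914205 to 30926459, plus strand), had 51, 62 and 41 counts in control and 68, 38 and 160 counts in treated GFP-positive libraries, and 96, 86 and 48 against 54, 30 and 48 in GFP-negative ones. Its estimate in GFP-positive cells went from 0.63 to -0.03 without treated GFP-positive replicate 3. CARS1 had 305 to 432 counts in control and 859 to 1266 counts in treated GFP-positive libraries and was called higher under all 15 alternatives in both fractions. Leaving out these 3 members drops VARS1 itself, the only member called lower in treated cells, so its call was bound to go.

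**Figure D4:**
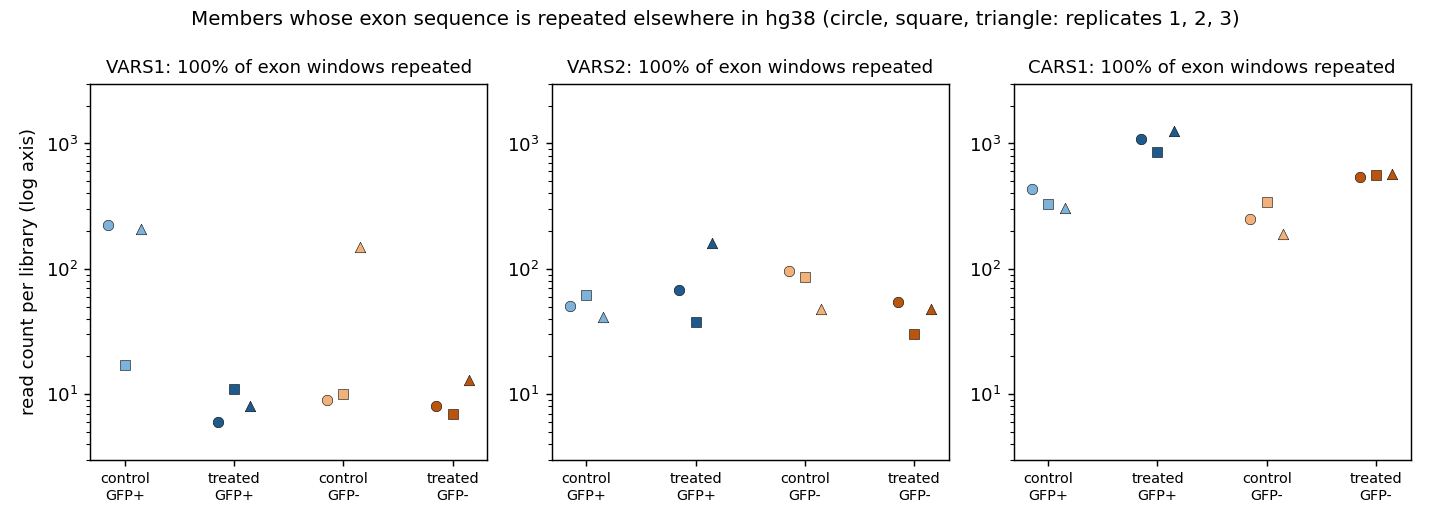
Read counts per library (vertical axis, log scale) of VARS1, VARS2 and CARS1, whose exon windows are all repeated on an alternate contig of hg38, by group with replicates 1, 2 and 3 as circle, square and triangle. VARS1 stands at 150 to 224 counts in 3 control libraries and at 6 to 17 in the other 9, whereas CARS1 is higher in treated than in control libraries of both fractions.

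Other genes of transfer RNA biology and translation, taken as lists of named genes, are given with the same rule. In GFP-positive cells 12.8% of all genes were called higher and 11.2% lower. Of 13 synthetase partners tested, 1 was called higher in GFP-positive cells and none lower, with a median log2 fold change of 0.36. The called gene was PTRH2, a mitochondrial peptidyl-tRNA hydrolase, at 22.5, 15.6 and 15.1 CPM in control and 39.5, 41 and 38.4 CPM in treated libraries (1.23, SE 0.19, adjusted p = 1.7e-06). Of 45 genes for transfer RNA maturation, modification and export, 6 were called higher, near the share over all genes, and 2 lower (median 0.33). XPOT, the exportin that carries transfer RNA out of the nucleus, had the largest increase, from 54.3, 53.4 and 72.9 CPM to 242, 242 and 226 CPM (2.05, SE 0.17, adjusted p = 2.2e-12). ADAT3, a subunit of the adenosine deaminase acting on transfer RNA, had the largest decrease, from 14.5, 15.3 and 12.4 CPM to 4.65, 5 and 2.68 CPM (-1.71, SE 0.23, adjusted p = 1.9e-07). Both genes were separated fully between groups, and in GFP-negative cells XPOT was at 1.80 (SE 0.17) and ADAT3 at -1.16 (SE 0.24), both past the test.

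Of 22 genes of RNA polymerase III and its factors, which make transfer RNA, 2 were called higher and none lower in GFP-positive cells (median 0.05). The shares over all genes were 12.8% and 11.2%. The subunit gene POLR3D had the largest increase, 1.35 (SE 0.16, adjusted p = 1.7e-08). Of 12 mitochondrial translation factors 1 was called higher (median 0.19), LRPPRC, which stabilises mitochondrial messenger RNA, at 1.05 (SE 0.16, adjusted p = 1.8e-06). Of 10 cytosolic elongation factors none was called in GFP-positive cells (median 0.35). At an adjusted p under 0.05 alone 3 were higher and 1 lower, beside 26.5% and 24.4% of all genes. Among 18 genes of the eIF2alpha kinases and the amino acid response, 12 were called higher and none lower (median 1.82), and in GFP-negative cells the counts were again 12 and 0 (median 1.88). DDIT3, a transcription factor of the stress response, led this list at 21, 15.6 and 14.7 CPM in control and 201, 142 and 256 CPM in treated GFP-positive libraries (3.62, SE 0.21, adjusted p = 1.7e-16). In GFP-negative cells the numbers called higher and lower were 1 and 0 of the partners, 2 and 3 of the maturation genes, 2 and 2 of the polymerase III genes, 1 and 0 of the mitochondrial factors and 1 and 0 of the elongation factors. Over all genes 8.59% were called higher and 9.75% lower in that fraction.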

How the data were processed

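The submitters' processing notes name HISAT2, featureCounts and hg38, and RNA was prepared with a strand-specific messenger RNA kit. The authors deposited raw read counts per gene symbol, one column per library, and 0 of the per-sample columns were left unused. Groups and replicate numbers were taken from the labels. According to the methods a replicate is an independent thaw of differentiated cells. Members and lists were chosen with earlier results of these data known.

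Counts of the whole table were tested with edgeR 4.0.16 in R 4.3.3 (TMM, filterByExpr with a minimum count of 10 and a minimum total of 15, quasi-likelihood F-test, Benjamini-Hochberg adjustment over all genes tested). Calls needed a change of 2-fold or more in addition to the adjusted p of 0.05, except for the interaction, which had no fold minimum. DESeq2 1.42.0, other scalings and filters, a fit of all 12 libraries, replicate blocks, removal of a loess trend with GC content (span 0.5) and fits leaving out each library were alternatives. The GC content and length of 25763 of 28278 symbols came from GENCODE 44. The fits were tested on simulated data. Depth was 23414935 to 38347050 counts per library. Each SD is the spread between the 3 libraries of a group. The SE was computed as the absolute log2 fold change over the square root of the F statistic. Because that test moderates dispersion across genes, the SE is not the spread of 1 gene's libraries alone.

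Same-numbered GFP-positive and GFP-negative libraries of a treatment were taken, from their labels, as fractions of 1 sorted culture. Their deviations from the group means correlated by 0.163 to 0.548 over 13368 genes. The replicate block fits of the interaction and of the control fractions took these fractions as paired. Those of the treatment within a fraction instead paired treated and control libraries of the same number. The main fits had no block. Values of every library were given for the 8 called cytosolic members with the largest changes, for up to 6 cytosolic members that did not pass, for the 4 mitochondrial members with the largest change in each direction, and for other members where a clause rests on them; in each list the called gene with the largest change in each direction was named. Exon windows were aligned with minimap2 2.31, and leaving out the 3 members with repeated windows was an alternative added after seeing the data.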

Additional observations from a re-analysis of the deposited data

How the results depend on the processing

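Over 38 members, 524 of 569 alternative results in GFP-positive cells and 537 of 567 in GFP-negative cells kept their direction and side of the 2-fold call. The cause of the changes below was not tested. In GFP-positive cells the median of cytosolic members (1.08) was 1.19 with library size alone, 1.01 in the fit of all 12 libraries, 0.96 with the GC trend removed, with or without the replicate block, and 1.02 to 1.19 leaving out 1 library. Library size alone moved the median of all genes from 0.03 to 0.14. The mitochondrial median (-0.17) was -0.06, -0.23, -0.12 and -0.12 under these settings. Cytosolic members called lower went from 1 to 0 with at least 10 counts in every library or without the repeated members. Both settings leave out VARS1, the only one called lower, so this change was fixed in advance. Mitochondrial members called higher went from 0 to 1 with the GC trend removed, with or without the block, and those called lower were 0 to 2 leaving out 1 library. With no minimum fold change they were 2 and 3 in GFP-positive cells and 1 and 2 in GFP-negative cells. In GFP-negative cells the cytosolic median (1.01) was 0.87 with the GC trend removed, with or without the block, and 0.92 to 1.09 leaving out 1 library. Leaving out 1 library gave 0 to 1 cytosolic and 0 to 2 mitochondrial members called lower.

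Between control fractions the cytosolic members called lower (1) were 0 with library size alone or in the fit of all 12 libraries, 2 with the block and GC removal, 3 with no minimum fold change and 0 to 1 leaving out 1 library, which also gave 0 to 1 called higher. Mitochondrial members lower were 4 with no minimum fold change. The cytosolic median (-0.11) was 0.00 in the fit of all 12 libraries, -0.19 without repeated members and -0.11 to -0.03 leaving out 1 library, and the mitochondrial median (-0.16) was -0.05 in the fit of all 12. For the interaction, 1 mitochondrial member, AARS2, was called with DESeq2, the replicate block, and the block with GC removal. The last also called 1 cytosolic member, WARS1, at -0.58 (adjusted p = 0.035). Leaving out control GFP-negative replicate 3 called a different one, VARS1, at -4.69 (adjusted p = 0.037), and took away its only high GFP-negative library.

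Reversed estimates in GFP-positive cells were near 0. FARSA was at -0.03 with DESeq2 or RLE scaling, -0.01 unfiltered, -0.07 with all 12 libraries and -0.11 to 0.18 leaving out 1 library. FARSB was at -0.16 with GC removal, with or without the block. QARS1 was at -0.01 with all 12 libraries and -0.03 to 0.22 leaving out 1. IARS2 was at 0.08 with library size alone and -0.12 to 0.03 leaving out 1. NARS2 was at -0.03 with DESeq2 or RLE, -0.07 with all 12, -0.20 with GC removal, -0.21 with the block too and -0.13 to 0.06 leaving out 1. VARS2 was at -0.03 to 0.97 leaving out 1. In GFP-negative cells leaving out 1 library gave -0.03 to 0.36 for FARSA, -3.14 to 0.24 for VARS1 and -0.07 to 0.18 for YARS2. HARS1 was at -0.03 with library size alone and -0.10 to 0.16 leaving out 1. AARS2 was at 0.09 with GC removal, 0.08 with the block too and -0.21 to 0.05 leaving out 1. HARS2 was at 0.01 with all 12, 0.03 and 0.02 with GC removal, and -0.09 to 0.07 leaving out 1. IARS2 was at -0.03 with GC removal in both fits, and TARS2 at 0.07 in both and -0.18 to 0.06 leaving out 1.

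Replicate numbers were shared by treated and control groups. The correlations of same-numbered deviations were -0.0388, 0.182 and 0.235 in GFP-positive and 0.0607, 0.253 and -0.084 in GFP-negative cells. Some of these exceed 0.163, the lowest value between same-numbered fractions of 1 treatment. They therefore do not settle whether same-numbered treated and control cultures shared a thaw. With the replicate block, which in these comparisons pairs same-numbered treated and control libraries, 14 and 11 cytosolic members were called higher, as without it.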
